A study of Drosophila melanogaster with 2 samples.

Results

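Distal intergenic peaks of Huckebein were taken from a chromatin immunoprecipitation and sequencing (ChIP-seq) study of whole Drosophila melanogaster embryos. A peak was counted as distal when its summit lay in no annotated gene and more than 5000 bp from the nearest annotated transcript start, with transposable elements not counted as genes. This rule took 265 of the 7220 peaks in the thresholded list that combines both replicates, or 3.67% of the list. The embryos were 0 to 24 h old and came from a transgenic strain named hkb-GFP, which expresses Huckebein fused to enhanced green fluorescent protein (eGFP). Both replicates are separate biological replicates of that single group, so no genotype, stage or treatment was compared. Chromatin sheared to 200 to 800 bp was pulled down with an antibody against GFP, which means that the tagged protein was followed in a mixture of all embryonic stages and cell types. The same rule applied to each replicate's own list found 199 of 5260 peaks (3.78%) in replicate 1 and 154 of 4347 peaks (3.54%) in replicate 2.

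Huckebein is a zinc finger transcription factor that acts at both poles of the early embryo, where it sets the limits of the mesoderm and takes part in forming the gut. Transcription factors bind DNA near gene starts and also at enhancers, which can lie far from the gene they act on and are often found in the wide stretches between developmental genes in flies. Insulator proteins, repeat-rich DNA and unannotated transcripts are further features of such stretches, and a peak in one of them does not name the gene it acts on, so the genes on both sides are given.

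The DNA under 5 of the 6 strongest distal peaks is shown because these summits carried high signal and were present in both replicates. Each line gives 61 bases centred on the summit from the RefSeq Release 6 assembly, named by the protein-coding genes on the left and the right, with any match to 1 of the 13 motifs searched in capitals.
RFeSP to chinmo, chr2L:1632808-1632868, plus strand: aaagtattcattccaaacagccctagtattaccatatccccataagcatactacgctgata
hng3 to CG13898, chr3L:781314-781374, plus strand: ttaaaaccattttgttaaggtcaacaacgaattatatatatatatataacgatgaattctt
CG44362 to CG7560, chr3L:11418424-11418484, plus strand: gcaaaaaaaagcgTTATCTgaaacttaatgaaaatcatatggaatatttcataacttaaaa
RFeSP to chinmo, chr2L:1638752-1638812, plus strand: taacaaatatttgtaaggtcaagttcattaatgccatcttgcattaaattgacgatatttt
CG13896 to hng3, chr3L:724688-724748, plus strand: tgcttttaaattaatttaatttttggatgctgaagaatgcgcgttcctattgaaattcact

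These windows are rich in A and T, and among them the only capitals are a reversed AGATAA, the site of GATA factors, between CG44362 and CG7560. Over all 265 distal peaks the median GC content of the 101 bp around the summit was 30.7%, with an interquartile range from 26.7% to 37.6%. The median was 32.7% for the 647 intergenic peaks within 5 kb of a start, 31.7% for the 905 intronic peaks beyond 5 kb and 34.7% for the whole list. Windows of the same length tiled across the distal intergenic space and holding no peak had a median of 41.6% (194516 windows). Across the members, GC content and signal value had a Spearman correlation of -0.25, as a description over 265 peaks of the same libraries. The distal summits were thus poorer in GC than distal windows without a peak taken over all arms. The medians of both comparison classes also lay below that of these windows, but no background of their own was measured. The part of GC content in which peaks were called was not tested.

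The authors' signal value of the distal peaks, a score without a stated unit, ran from 2.07 to 1792 with a median of 105 and an interquartile range of 82.5 to 150. The median was 110 for intergenic peaks within 5 kb, 101 for intronic peaks beyond 5 kb and 107 for the whole list. Of the distal peaks 130 (49.1%, exact 95% binomial interval 42.9% to 55.2%) exceeded the median of the list. The share was 51.6% for intergenic peaks within 5 kb (odds ratio 0.902, 95% interval 0.678 to 1.20, Fisher's exact test, two-sided, adjusted p = 0.597). It was 46.1% for intronic peaks beyond 5 kb (odds ratio 1.13, 95% interval 0.857 to 1.48, Fisher's exact test, adjusted p = 0.597). No difference in strength was called, and both intervals of the odds ratio include 1. These and the other share tests were adjusted by the Benjamini-Hochberg method over 7 comparisons. All peaks come from the same 2 libraries and neighbouring peaks are not independent, so the p-values and intervals cover counting over peaks only.

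Signal values of 12 distal peaks lay below 25, from 2.07 to 24.8, and the next value above them was 57.6. Each of these 12 summits lay 199 to 274 bp from another listed summit. For such a peak, overlap with a replicate's list can come from the neighbouring peak.

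Of the 265 distal peaks, 122 (46.0%, exact 95% interval 39.9% to 52.2%) overlapped a peak in the own thresholded list of both replicates, and across the whole combined list the share was 47.9%. The share was 50.5% for intergenic peaks within 5 kb (odds ratio 0.835, 95% interval 0.627 to 1.11, Fisher's exact test, adjusted p = 0.567). For intronic peaks beyond 5 kb it was 41.5% (odds ratio 1.20, 95% interval 0.911 to 1.58, Fisher's exact test, adjusted p = 0.567). Distal peaks were thus found in both replicates about as often as the list as a whole, and no difference from either class was called. Replicate 1's list held 182 of the distal peaks (68.7%, against 68.1% of all peaks) and replicate 2's list 142 (53.6%, against 57.6%). Of the distal peaks 60 were held by replicate 1 alone and 20 by replicate 2 alone (1457 and 699 of all 7220 peaks). Neither list held 63 (23.8%, against 22.2% of all peaks). The conservative combined list overlapped 238 distal peaks (89.8%), against 86.8% of all peaks. With the summits of both replicates required to lie within 100 bp of the combined summit, 116 distal peaks (43.8%) remained, against 44.5% of all peaks.

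Read from the replicates' side, 126 of the 199 distal peaks in replicate 1's list (63.3%) overlapped a peak of replicate 2, against 66.3% of that whole list. In replicate 2's list 124 of 154 distal peaks (80.5%) overlapped a peak of replicate 1, against 80.2% of that list. The combined list had no overlapping peak for 15 of the distal peaks of replicate 1 (7.54%, against 6.35% of that whole list). The same was true for 12 of those of replicate 2 (7.79%, against 5.13% of that list). Signal values of the candidate peaks in both replicates were available for 243 distal members, and their Spearman correlation across peaks was 0.73, compared with 0.76 for intergenic peaks within 5 kb and 0.72 for intronic peaks beyond 5 kb. These correlations describe peaks called from the same libraries and carry no test. The plot of both replicates' signal values shows a narrow band at high values and a wide cloud below.

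**Figure D1:**
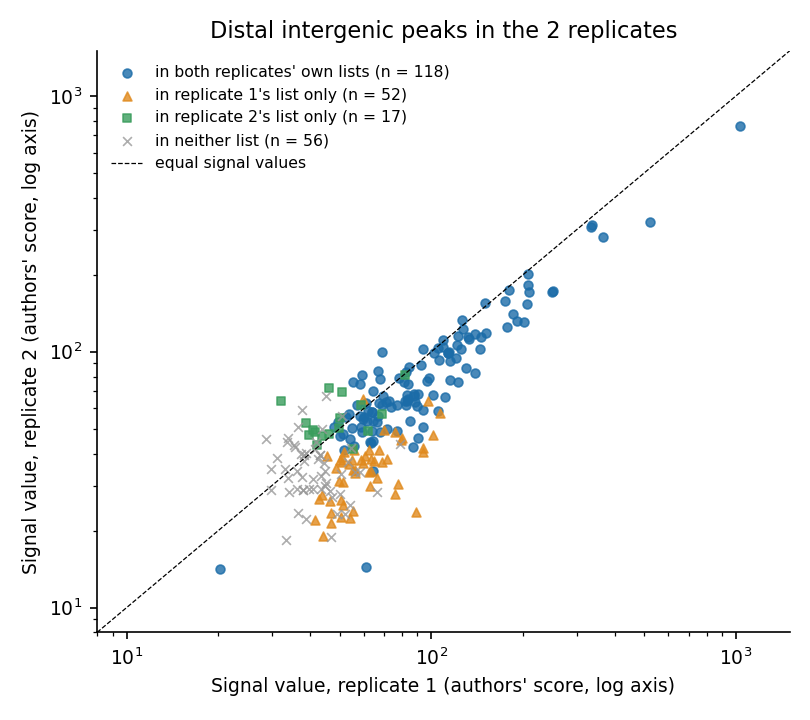
Signal values of the 243 distal intergenic peaks with a candidate peak in both replicates, replicate 1 on the horizontal and replicate 2 on the vertical log axis, 1 point per peak, with the dashed line marking equal values. Members in both replicates' lists reach the highest values, while the 52 in the list of replicate 1 only, the 17 in that of replicate 2 only and the 56 in neither list crowd at the low end. Signal values and lists come from the same libraries.

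Presence in both replicates differed with signal value. The combined value and both replicates' lists come from the same 2 libraries, so such a difference is largely built in and is no separate result. The combined list was cut into 5 classes of equal size by signal value. In the highest class all 42 distal peaks were in both replicates' lists, and in the next 84.3% of 51 were. The share was 44.3% of 70 in the middle class, 3.33% of 60 in the one below it and 9.52% of 42 in the lowest. All 4 held peaks of the lowest class were among the 12 members with values below 25, each beside another listed summit. The shares of intergenic peaks within 5 kb and of intronic peaks beyond 5 kb stood in the same order of classes.

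**Figure D2:**
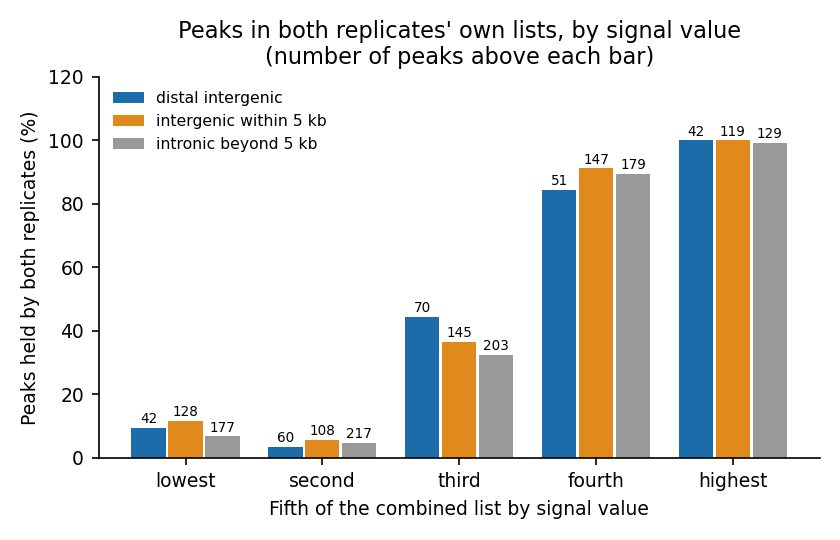
Share of peaks found in both replicates' own lists (vertical axis, percent) in 5 equal classes of the combined list ordered by signal value (horizontal axis), with bars for distal intergenic, intergenic within 5 kb and intronic beyond 5 kb peaks and the number of peaks above each bar. For distal peaks the share is 100% in the highest class and 3.33% and 9.52% in the lower pair. Signal values and lists come from the same libraries.

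The strongest distal peak, at 2R:13035335, reached 1792 after combination, and the values for replicates 1 and 2 were 1034 and 761. It lay 27424 bp from Su(z)2 (FBgn0265623), a relative of the Polycomb-group gene Psc, and 9360 bp from CG13323 (FBgn0033788), in a gap of 36.8 kb whose 2 flanking genes point at each other. Its value was 2.10 times that of the next distal peak, and the other 3 distal peaks of that gap had values from 83.7 to 114. Psc itself, chosen for mention after its values were seen, flanked a distal peak of 260 on its side facing CG13321, with 126 in replicate 1 and 133 in replicate 2.

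The second strongest peak, at 2L:1632838, had a value of 853 (521 in replicate 1 and 322 in replicate 2). The fifth, at 2L:1638782, had 643 (335 in replicate 1 and 314 in replicate 2). Both lay in the same gap of 20.9 kb between 2 noncoding genes, lncRNA:CR44603 and lncRNA:CR45695. The protein-coding neighbours were RFeSP, which encodes the Rieske iron-sulphur protein of the mitochondrial respiratory chain, and chinmo (FBgn0086758), which encodes a zinc finger protein that controls the temporal identity of neurons. chinmo lay 18420 bp from the stronger peak and 12476 bp from the other. This gap held 8 listed peaks in all, of which 4 were distal.

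The third peak, at 3L:781344, had a value of 653 (335 and 308 in replicates 1 and 2) and lay between tRNA:Ile-TAT-1-2 and CG13898, with hng3 as the protein-coding neighbour on the left at 25855 bp. The sixth, at 3L:724718, had 420 (248 and 171) and lay on the other side of hng3, between the noncoding genes lncRNA:CR45411 and lncRNA:CR43785. Each of these 2 gaps held 4 distal peaks, and another gap, between hng3 and tRNA:Ile-TAT-1-1, held 1 with a value of 219 (139 and 82.4). The fourth, ninth and eleventh peaks, at 3L:11418454, 3L:11416952 and 3L:11417721, lay together in the gap between lncRNA:CR44363 and CG7560, with CG44362 as the protein-coding neighbour on the left. Their values were 647 (367 and 279), 393 (252 and 173) and 370 (174 and 158). The 4 distal peaks of this gap spanned 2.89 kb and were all present in both replicates.

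The seventh peak, at 3L:18212358, had 417 (208 and 202) and lay 8721 bp from CG7320, with lncRNA:CR45935 and then CheA75a on the other side. The eighth, at 3L:10739940, had 394 (208 and 182) and lay between NijA and CG43245. The tenth, at 3L:9025897, had 373 (209 and 171) and lay 6651 bp from Doc2 with Doc1 on the far side of lncRNA:CR46451, both T-box genes of the dorsal embryo and heart. The twelfth, at 2R:20121968, had 356 (180 and 174) and lay 5036 bp from 18w, a gene of the Toll receptor family, with lncRNA:CR44634 and then CG11041 on the other side. All 12 of the strongest members were present in both replicates, as were all distal peaks of the highest class by signal value, both measures coming from the same libraries. In each of the 12 the value was higher in replicate 1 than in replicate 2, on scales that belong to each list. The same held for 191 of the 243 members with a value in both replicates.

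The rule's edge fell among peaks of ordinary strength. The 3 intergenic summits nearest to the limit on its near side lay 4961, 4979 and 4987 bp from a start and had signal values of 175, 67.4 and 165. The 3 nearest on its far side lay 5058, 5084 and 5102 bp away and had 97.5, 113 and 101. The median distance to the nearest start was 8620 bp, with 98 members beyond 10000 bp, 19 beyond 20000 bp and 8 beyond 30000 bp. The farthest, at 3L:1139620 between bab1 and bab2, a pair of BTB-domain genes, was 37656 bp from a start. It lay 809 bp from the end of bab2, and 20 members in all lay within 1000 bp of a gene end. Distance from a start is therefore not distance from a gene. Peaks beyond 15 kb had a median signal value of 98.9, against 119 from 10 to 15 kb, 99.5 from 7.5 to 10 kb and 102 below that, with no order by distance. The shares present in both replicates were 51.4%, 55.7%, 36.8% and 44.4% in the same sequence.

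Intergenic space beyond 5 kb of a start covered 20.1 Mb, or 15.01% of the 6 chromosome arms, and held 13.2 distal peaks per Mb, compared with 53.9 listed peaks per Mb over the arms as a whole. By arm the density ran from 7.21 per Mb on 2R to 18.6 per Mb on 2L, with 16.1 on 3L, 13.0 on 3R and 11.6 on X. Chromosome 4 held 1 member, and it was also the only one inside an annotated transposable element. In replicate 1's own list 2L had the most (13.5 per Mb) and 3L followed (12.4), and in replicate 2's list the order was the same (12.8 and 9.50). Of the authors' ranked candidates, 4601 of 94687 were distal, and 265 of these distal candidates stood in the list (5.76%), while the 7220 listed peaks were 7.63% of all candidates. Per distal candidate the arms lay closer together, with 6.65% on 2L, 6.42% on 3L, 6.08% on 3R, 5.37% on 2R and 3.89% on X. On 2R 35.6% of the distal bases were soft-masked as repeats, against 28.5% on 2L.

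A soft-masked base, one marked as repeat or low-complexity sequence, was at the summit of 68 distal peaks (25.7%, exact 95% interval 20.5% to 31.4%). The share was 23.3% for intergenic peaks within 5 kb (odds ratio 1.13, 95% interval 0.815 to 1.58, Fisher's exact test, adjusted p = 0.597) and 24.9% for intronic peaks beyond 5 kb (odds ratio 1.04, 95% interval 0.762 to 1.43, adjusted p = 0.809). No difference was called, and in the tiled distal windows without a peak the share was 31.8%.

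The distal peaks fell into 165 of the 1422 gaps that hold any base beyond 5 kb of a start (11.6%). In 108 of these gaps there was 1 distal peak, in 33 there were 2, in 14 there were 3, in 8 there were 4, and single gaps held 6 and 11. The gaps with 4 or more, 10 in number, held 49 members (18.5%). Gaps with a distal peak had a median width of 20.03 kb and those without one 12.5 kb. The share of gaps with a member was 3.06% where at most 2 kb lay beyond the limit, 21.4% where 10 to 20 kb did and 18.7% above 20 kb. Wider gaps hold more distal bases, and the density fell from 48.2 members per Mb of distal space in the first of these bins to 24.1 at 10 to 20 kb. Gaps above 20 kb held 13.2 Mb of the distal space at 6.29 members per Mb, 36.1% of it soft-masked. Members were 7.91%, 6% and 5.26% of the distal candidates in these 3 bins.

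**Figure D3:**
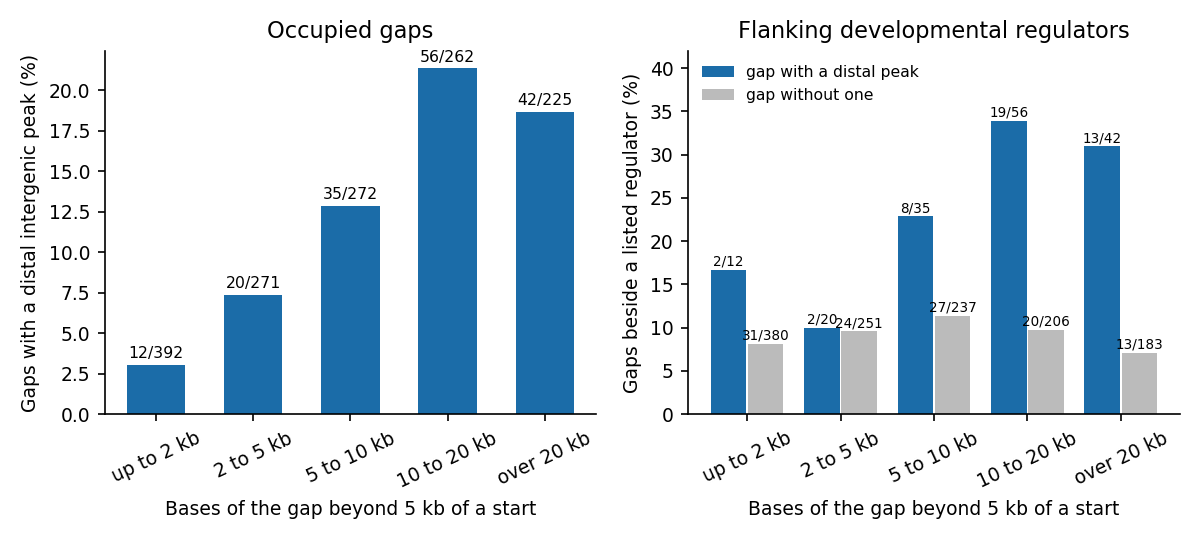
Left, percentage of gaps with a distal intergenic peak (vertical axis) by the number of bases of the gap beyond 5 kb of a start (horizontal axis), with counts of gaps above the bars. Members per Mb of such bases fell from 48.2 in the first bin to 6.29 in the last. Right, percentage of gaps flanked by a gene of the developmental lists, for gaps with and without a distal peak in the same bins, where the bars stand at 33.9% and 9.71% for 10 to 20 kb and at 31.0% and 7.104% above 20 kb.

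Most distal peaks shared their gap with another listed peak, which was the case for 198 (74.7%, exact 95% interval 69.0% to 79.8%), against 375 of the intergenic peaks within 5 kb (58.0%). The difference passed the threshold (odds ratio 2.14, 95% interval 1.56 to 2.95, Fisher's exact test, adjusted p = 1.26e-05). The gaps differ in width by construction, with medians of 22.2 kb for distal peaks and 6.27 kb for the others. Within gaps of 10 to 30 kb, a comparison added after the data were seen, the shares were 76.9% and 70.2% and the difference was not called (odds ratio 1.41, Fisher's exact test, adjusted p = 0.654). In the 50% of the list with higher signal values it was not called either (54.6% and 40.7%, odds ratio 1.75, Fisher's exact test, adjusted p = 0.0643). Measured in bases, distal peaks were farther from their neighbours, with a median of 4675 bp to the next listed summit, 2218 bp for intergenic peaks within 5 kb and 3253 bp for intronic peaks beyond 5 kb. Another summit lay within 1000 bp for 19.2% of distal peaks, 31.1% of intergenic peaks within 5 kb and 19.9% of intronic peaks beyond 5 kb.

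The gap with the most members, 11, was the 75.05 kb between NijA, which encodes the cell-surface protein Ninjurin A, and CG43245 on 3L. Of these 11 peaks 4 were present in both replicates, with values of 394, 340, 184 and 128. In replicates 1 and 2 these were 208 and 182, 202 and 131, 84.8 and 87.3, and 71.7 and 49.7. The other 7 had values from 66.0 to 101. All but 1 of the 11 lay between 36.9 and 64.1 kb from the NijA end, and none lay between 7.93 and 36.9 kb.

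The gap with the next highest number, 6, ran for 70.5 kb from vvl (FBgn0086680), which encodes a POU-domain factor of the trachea and nervous system, to lncRNA:CR45115, with Prat2, a gene of purine synthesis, as the next protein-coding gene. Its strongest peak had a value of 318 (191 in replicate 1 and 132 in replicate 2) and lay 29060 bp from vvl, and another had 219 (109 and 104). The remaining 4 had values from 83.0 to 122, and 1 of these was in both replicates' lists. The 8 gaps with 4 members each lay beside ems and Art9, Su(z)2 and CG13323, hth and CG6465, 18w and CG11041, RFeSP and chinmo, CG44362 and CG7560, CG13896 and hng3, and hng3 and CG13898, named by their protein-coding neighbours. The widest gap with a member was 113 kb between CG10651 and lncRNA:CR40341, with CG17571 as the next protein-coding gene, and held a single peak of 59.9 in neither replicate's list. NijA to CG43245 was the second widest. The third was 73.5 kb between lncRNA:CR46353 and rpr, with grim as the protein-coding neighbour on the left. Both genes trigger programmed cell death, and the gap held 2 peaks of 185 and 89.1.

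**Figure D4:**
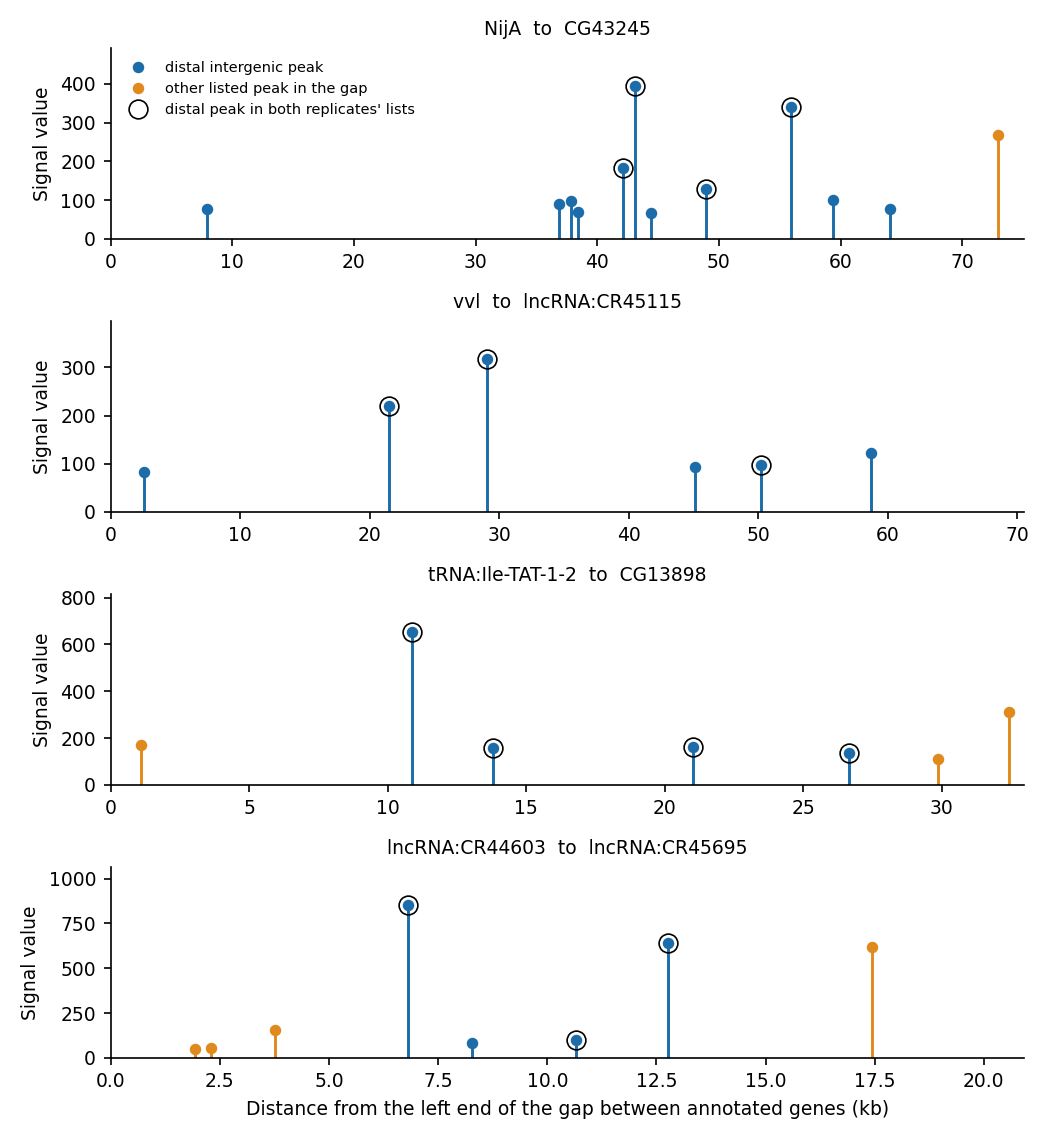
Signal value (vertical axis) of every listed peak in 4 gaps against its distance in kb from the left end of the gap (horizontal axis), in blue for distal peaks and orange for others, with a ring around distal peaks in both replicates' lists. The NijA gap holds 11 distal peaks, 4 of them ringed, and the vvl gap holds 6, 3 of them ringed.

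The nearest annotated start belonged to a protein-coding gene for 181 members, to a noncoding RNA gene for 78 and to a transfer RNA gene for 6. A noncoding gene was the immediate neighbour on 1 side for 114 members and on both sides for 26. Counting protein-coding neighbours only, 79 members (29.8%) lay between genes that point at each other, 61 (23.0%) between genes that point away and 125 (47.2%) between genes on the same strand. The shares for intergenic peaks within 5 kb were 14.4%, 35.4% and 50.2%. The limit on distance from starts removes bases beside genes that point away. Genes that point at each other flanked 27.9% of the gaps with a distal peak and 34.8% of the gaps with distal bases but no distal peak, and genes that point away flanked 19.4% and 18.5%.

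Genes of 14 lists of developmental regulators, 209 genes in all, flanked 71 distal peaks (26.8%), 32 of which were in both replicates' lists. They flanked 81 of the 647 intergenic peaks within 5 kb (12.5%). By gap, 44 of the 165 with a distal peak (26.7%) lay beside such a gene, and 9.15% of the 1257 without one. Gaps with and without a member were also compared in bins of the number of bases beyond 5 kb of a start. The widest difference, 33.9% against 9.71%, was at 10 to 20 kb, and the shares were 22.9% and 11.4% at 5 to 10 kb. At 2 to 5 kb they were nearly equal, at 10% (2 of 20 gaps) and 9.56%. Up to 2 kb they were 16.7% and 8.16%, the former from 2 of 12 gaps. No test was made of these counts, the lists overlap, and a flanking gene need not be one that the peak acts on.

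Among early patterning genes, 12 members (4.53%, against 1.55% of intergenic peaks within 5 kb) flanked 4 of the 15 genes of the gap and maternal list. The head gap gene ems had 5 and its strongest had a value of 228 (122 in replicate 1 and 106 in replicate 2), while oc, the fly orthodenticle gene, had 5 with a highest value of 160 (87.6 and 67.3). In the pair-rule list, 9 members (3.40%, against 1.08% of intergenic peaks within 5 kb) flanked 4 of 11 genes. Of these 5 lay beside hry (hairy), the strongest of 212 (113 and 99.1), and 1 beside opa of 102 (49.6 and 52.9). In the segment polarity list, 9 members (3.40%, against 0.618% of intergenic peaks within 5 kb) flanked 6 of 14 genes. The single member beside ptc, the gene of the Hedgehog receptor, had 347 (206 and 154). Between Wnt4 and wg, which encode Wnt ligands, the stronger of 2 members had 209 (105 and 104). All 3 members beside the T-box gene mid were in both replicates' lists, the strongest with 203 (116 and 92.1). The median signal value was 144 over the 9 segment polarity members, the highest of the lists, and 105 over all distal peaks. Close to it were 143 for the 1 Notch member and 141 over the 5 axon guidance and adhesion members, and no test was made. The median was 116 over the gap and maternal members and 87.3 over the pair-rule members. Members beside mid and H15 also count in the mesoderm and heart list.

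Among the 18 lists the homeobox families were flanked by the most members, 27 (10.2%) beside 14 of its 49 genes, against 2.63% of intergenic peaks within 5 kb, although their median value of 99.8 was below that of all distal peaks. They included the 7 members beside vvl, 6 in the gap described and 1 on its other side, and 3 beside mirr. The strongest of the latter, with caup on its far side, had 142 (59.1 and 81.0), and both are Iroquois genes. The Hox cofactor gene hth had 6 members, and the strongest of 160 (101 and 67.7) lay 25528 bp from it. In the dorsoventral list, 3 members lay between Doc2 and Doc1, and in the mesoderm and heart list 3 lay between pyr and ths, which encode ligands of the fibroblast growth factor family. The strongest of the latter had 124 (61.2 and 63.3). The member beside H15, the neighbour of mid, had 144 (90.6 and 46.1), that beside Ser, the gene of a Notch ligand, had 143 (90.0 and 61.6), and the stronger of 2 beside SoxN, a gene of the early nervous system, had 129 (87.0 and 42.6). Genes of the Notch list flanked 0.377% of distal peaks and 0.618% of intergenic peaks within 5 kb. The shares were 1.13% and 0.773% for the proneural and neuroblast list and 2.64% and 0.773% for the homeotic list with cofactors. They were 2.64% and 1.24% for the dorsoventral list and 2.26% and 0.927% for the mesoderm and heart list.

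In lists closer to Huckebein's known role, 4 of 11 terminal genes and 4 of 12 endoderm and gut genes bordered distal space at all. The terminal list had 1 gene with a member, fkh, with a value of 107 (77.9 and 30.5) that was not in both replicates' lists, and no distal peak flanked hkb. Terminal genes bordered 0.606% of the gaps with a distal peak and 0.318% of those without. The endoderm and gut list had 2 members, 1 of them the same peak beside fkh, and neither was in both replicates' lists. Its genes bordered 1.21% (2 of 165) and 0.239% (3 of 1257) of the same gaps. By peak the order was the other way for both lists. Terminal genes flanked 0.377% of distal peaks and 0.618% of intergenic peaks within 5 kb, and endoderm and gut genes 0.755% and 1.08%. In the list of receptor tyrosine kinase signalling, 5 of 16 genes bordered distal space, and none was flanked by a distal peak. Its genes bordered 0.796% of the gaps without a distal peak, and 13 intergenic peaks within 5 kb (2.01%) lay beside one. Of 17 hormone receptor genes 3 bordered distal space, also without a distal peak, and they bordered 0.318% of the gaps without one. With so few gaps, these counts of 0 cannot show an absence.

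In the list of axon guidance and adhesion, 5 members flanked 4 of 64 genes, and genes of the list bordered 3.03% of the gaps with a distal peak and 5.01% of those without. By peak the order was the other way, with 1.89% of distal peaks and 1.55% of intergenic peaks within 5 kb beside a gene of the list. These members lay beside dpr17 at 213 (130 and 86.6), klg at 144 (83.9 and 74.5), caps at 141 (71.1 and 63.6) and Toll-6, where the stronger of 2 had 119 (57.1 and 61.8). Of chemoreceptor genes, Or85b had the strongest member, at 253 (127 and 122), and 4 members in all (1.51%, against 1.85% of intergenic peaks within 5 kb) lay beside genes of that list. Single members lay beside the cuticle protein gene Cpr35B, at 135 (77.2 and 49.1), and the dopamine receptor gene Dop1R2, at 135 (69.4 and 66.9). These were 0.377% of distal peaks each, and the shares of intergenic peaks within 5 kb beside a gene of the cuticle and neurotransmission lists were 1.08% and 0.464%.

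Motifs were searched on both strands in the 101 bp around each summit. The Huckebein core CACGCCC, taken as the core of the factor's site, was present in 2 distal peaks (0.755%, exact 95% interval 0.0915% to 2.70%). It was present in 1.08% of intergenic peaks within 5 kb (odds ratio 0.695, 95% interval 0.143 to 3.37, Fisher's exact test, adjusted p = 1) and in 0.442% of intronic peaks beyond 5 kb (odds ratio 1.71, 95% interval 0.312 to 9.40, adjusted p = 1). The share was 0.762% over all listed peaks and 1.28% in tiled distal windows without a peak. Median GC content was 41.6% in these windows and 30.7% at the distal summits, and no motif share was adjusted for it. Motif tests were adjusted over 26 comparisons. Both matches are shown on their own strand with the core in capitals, the first from the NijA gap and the second from a peak of 6.08 beside a stronger summit between hth and CG6465.
NijA to CG43245, chr3L:10760966-10761006, minus strand: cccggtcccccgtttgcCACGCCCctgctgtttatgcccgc
hth to CG6465, chr3R:10665235-10665275, minus strand: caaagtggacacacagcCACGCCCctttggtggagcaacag

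Of the 13 motifs, 1 differed from the comparison classes. AGGATAA, a site of the BTB zinc finger repressor Tramtrack, occurred in 9 distal peaks (3.40%, exact 95% interval 1.56% to 6.35%). It occurred in 3 of the 647 intergenic peaks within 5 kb (0.464%; odds ratio 7.55, 95% interval 2.03 to 28.1, Fisher's exact test, adjusted p = 0.0245). It occurred in 6 of the 905 intronic peaks beyond 5 kb (0.663%; odds ratio 5.27, 95% interval 1.86 to 14.9, Fisher's exact test, adjusted p = 0.0245). The share was 0.720% over all listed peaks and 1.10% in tiled distal windows, which were richer in GC than the distal summits and were not matched to them. The call rests on few peaks and ended under most other settings. In replicate 1's own list the motif was in 5 of 199 distal peaks (2.51%, against 0.607% and 0.960%, Fisher's exact test, adjusted p = 0.618 and 1), and in replicate 2's list in 3 of 154 (1.95%, against 0.748% and 0.207%, adjusted p = 1 and 0.892). In the conservative list it was called against intronic peaks only (Fisher's exact test, adjusted p = 0.00495, and 0.232 against intergenic peaks within 5 kb). Of the 9 peaks 3 were in both replicates' lists. The matches are printed because they carry this comparison, 8 of the 9, in 41 bases on the strand of the motif with the motif in capitals.
CG7320 to CheA75a, chr3L:18212353-18212393, plus strand: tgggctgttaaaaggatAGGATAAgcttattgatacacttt
CG7378 to CG43759, chrX:18923712-18923752, minus strand: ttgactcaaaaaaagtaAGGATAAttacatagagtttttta
scyl to Dyro, chr3L:11260482-11260522, minus strand: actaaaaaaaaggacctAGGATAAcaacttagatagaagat
Fancm to C15, chr3R:21493732-21493772, plus strand: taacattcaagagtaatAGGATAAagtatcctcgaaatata
CG6163 to CG11726, chr3L:11375528-11375568, minus strand: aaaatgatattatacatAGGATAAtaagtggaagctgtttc
Cyp12e1 to hth, chr3R:10498720-10498760, minus strand: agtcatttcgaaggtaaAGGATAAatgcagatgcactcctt
CG13896 to hng3, chr3L:721184-721224, minus strand: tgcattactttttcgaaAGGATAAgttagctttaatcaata
sob to odd, chr2L:3601022-3601062, plus strand: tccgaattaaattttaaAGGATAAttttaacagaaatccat

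The strongest of these, between CG7320 and CheA75a, had a signal value of 417 (208 in replicate 1 and 202 in replicate 2). The next, between CG7378 and CG43759, had 167 (105 and 58.6), and the peak between Fancm and the homeobox gene C15 had 116 (67.5 and 62.8). Those 3 were in both replicates' lists. The others of the 8, beside scyl, CG6163, hth, CG13896 and odd, had values from 63.7 to 141. The centre of each of the 8 matches shown lay within 28 bp of its summit.

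The remaining motifs showed no called difference. TAATTA, the homeodomain site, was in 20 distal peaks (7.55%) against 10.2% and 9.28% of the intergenic and intronic classes, and CACACA was in 18 (6.79%) against 7.42% and 6.74%. AGATAA, the GATA site, was also in 18 (6.79%) against 6.96% and 8.62%, and although it ends in the same letters as the Tramtrack site, neither motif contains the other. GAGAGA, bound by GAGA factor, was in 12 (4.53%) against 4.64% and 4.53%, and CACATG, an E-box of Twist, was in 12 (4.53%) against 3.40% and 3.65%. TGANTCA (AP-1) was in 5, TGCATAC (Su(Hw)) in 4, AGNNGGCGC (CTCF) in 1 and GGTCACAC (M1BP) in 1. CAGGTAG (Zelda) and TATCGATA (DRE) were in 0 of 265, for which the exact 95% interval reaches 1.38% and an allowance of 3 counts comes to 1.13%, both covering counting error alone, and their shares in all listed peaks were 0.582% and 0.789%. All of these are letter matches and no measure of binding by the factors named.

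**Figure D5:**
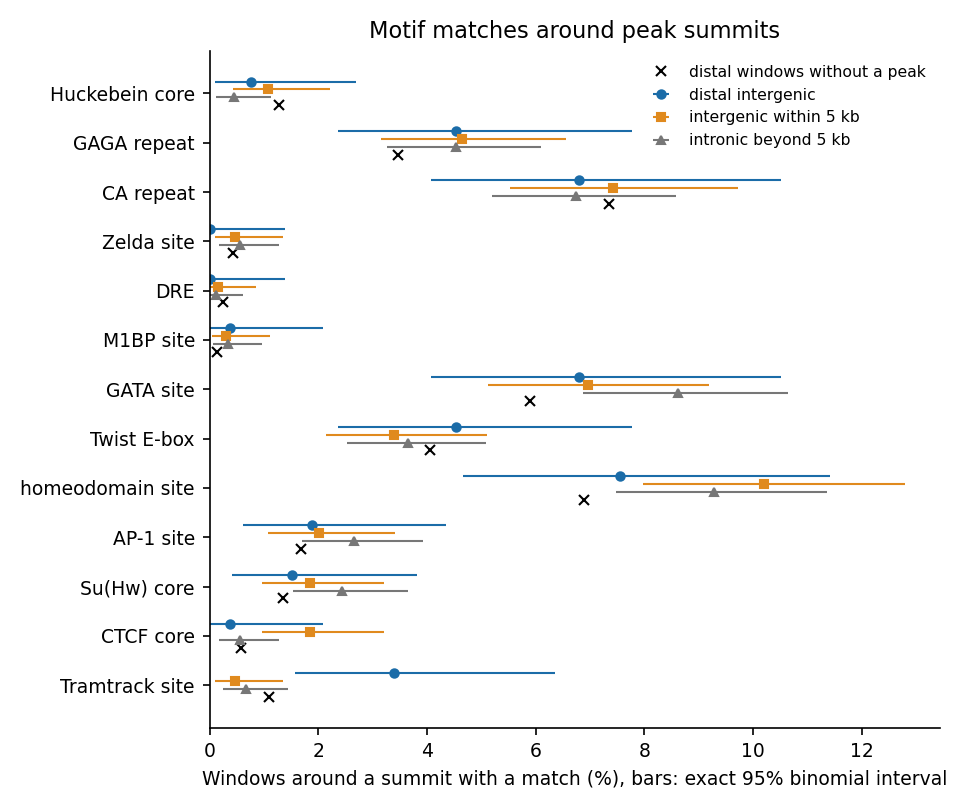
Percentage of 101 bp windows with a match (horizontal axis) for the 13 motifs (vertical axis), with points and exact 95% binomial intervals for distal intergenic, intergenic within 5 kb and intronic beyond 5 kb peaks, and crosses for tiled distal windows without a peak. For the Tramtrack site the distal point at 3.40% stands to the right of the others, and for the other motifs the intervals of the classes overlap. The tiled windows were not matched for GC content.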

How the data were processed

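Peak lists from ChIP-seq of 2 biological replicates in 1 group were used, with dm6 coordinates per the labels. Neither the aligner nor the caller of peaks is given in the sources used here. Control libraries were not analysed here. The authors deposited a signal value for each peak, a score without a unit, and likewise the −log10 of the irreproducible discovery rate in the ranked lists, where listed peaks have at least 2. Read totals are not in the lists, so depth is unknown and intervals cover counting over peaks only.

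Summits were placed against Ensembl release 115 on the arms of the RefSeq Release 6 assembly, with 18164 genes and 35497 transcripts after transposable elements were left out. A summit within 500 bp of a start was called promoter, and the rest exonic, intronic or intergenic, the latter pair split at 5000 bp from a start. Presence in a replicate meant an overlap of at least 1 bp. Replicate values are those of the candidate peak with the nearest summit within 100 bp. The test for shares was Fisher's exact test (two-sided) with Benjamini-Hochberg adjustment over 7 share and 26 motif comparisons and a threshold of 0.05. Tiled windows were 101 bp. The steps were tested on simulated peaks and ran in Python 3.11.15 with scipy 1.17.1.

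The named genes were those beside the 12 strongest members, the gaps with most members (all 10 with at least 4, since 8 tied), the 3 widest gaps, and up to 4 genes per list by the strongest flanking member found in both replicates. Genes named where a count is small (fkh, Psc, bab1 and bab2) were chosen after their values were seen. The members, gene lists, motifs and rules were chosen with earlier results of these data known. Alternatives were other distance limits, protein-coding genes alone, the conservative list, the stronger 50% of the list, each replicate's list, 1 peak per gap or gene, stricter overlap and other motif windows.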

Additional observations from a re-analysis of the deposited data

How the results depend on the processing

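No paired analysis was possible because there is 1 group. The number of distal peaks was 559 with a limit of 2000 bp, 98 with 10000 bp, 510 with protein-coding genes only, 130 in the stronger 50% of the list and 165 with 1 peak per gap, and 154 to 199 in single replicates' lists. For the share held by both replicates, the odds ratio turned to 1.24 against intergenic peaks within 5 kb with a limit of 10000 bp and to 0.798 against intronic peaks with 1 peak per gap or gene. For the share above the median signal value, it turned to 1.05 (10000 bp) and 1.02 (1 peak per gap) against intergenic peaks, and to 0.778 (stronger 50%) and 0.841 (1 peak per gap or gene) against intronic peaks, with 0.834 to 0.995 in single replicates. For soft-masked summits, it turned to 0.994 (2000 bp) against intergenic peaks, with 0.997 to 1.06 in single replicates. Against intronic peaks it turned to 0.984 (2000 bp), 0.988 (protein-coding genes), 0.858 (stronger 50%) and 0.994 (1 peak per gap or gene), with 0.782 to 0.836 in single replicates. None of these was called under any setting run. For a shared gap, the odds ratio was 1.75 in the stronger 50% of the list and 1.41 in gaps of 10 to 30 kb, neither called, and called under the other settings run. It could not be computed with 1 peak per gap. Motif comparisons past the threshold numbered 2 on summits that are not soft-masked and 1 in the conservative list. They numbered 0 with limits of 2000 and 10000 bp, protein-coding genes only, the stronger 50%, 1 peak per gap or gene, windows of 25 or 100 bp either side, peaks near a stronger summit left out, and 0 in either single replicate. The odds ratio of the Tramtrack site against intergenic peaks turned to 0.753 with 10000 bp. The cause of these changes was not tested.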
